A study of Mus musculus with 6 samples.

Results

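The immunity-related GTPases are interferon-inducible GTPases of the mouse. The 7 described here, Igtp, Irgm1, Irgm2, Iigp1, Ifi47, Tgtp1 and Tgtp2, were chosen by gene symbol from a table of 54532 genes, and all 7 were found in it. The libraries came from colon RNA of C57BL/6 mice at 56 days of age. There were 3 libraries labelled WT (wild type) and 3 libraries labelled Il10 knockout (genotype IL10-/-), with no treatment named in the labels for either group. Interleukin 10 holds back inflammatory responses, and animals that lack it are a common model of chronic colitis. The labels do not give the targeted allele or its deleted part, and nothing in the sources ties each library to a mouse of its own, so p-values reflect only how far these libraries spread.

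Cells use immunity-related GTPases against microbes that live inside vacuoles, such as Toxoplasma and Chlamydia. Interferon gamma, made mainly by T cells and natural killer cells, acts through its receptor and the factor IRF1, among others, to switch on the GTPase genes. The effector members (Iigp1, also called Irga6; Tgtp1 and Tgtp2, also called Irgb6; Ifi47, also called Irgd) load onto the membrane around the microbe and help to break it. The regulatory IRGM members (Irgm1, Irgm2 and Igtp, the last also called Irgm3) sit on the cell's own membranes and keep the effectors inactive there. Irgm1 also bears on autophagy and on intestinal inflammation in mice that lack it.

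Values are FPKM (fragment counts relative to the length of the gene and the size of the library, on the authors' scale), so levels of different genes are compared per length. Reads recovered from these values totalled 13107941 to 15797928 per library, and mitochondrial genes took 11.7% to 43.4% of the reads in the WT libraries and 8.61% to 22.0% in those labelled Il10 knockout. Across genes, which are not independent replicates, pairs of WT libraries correlated at a Pearson's r of 0.795 to 0.864 and pairs labelled Il10 knockout at 0.935 to 0.961, so the WT libraries stood further apart. WT library 1 had an r of 0.872 to 0.910 with the libraries labelled Il10 knockout. With WT libraries 2 and 3 it had 0.826 and 0.864. For WT library 2 the values were 0.829 to 0.887 with that group, and 0.826 and 0.795 with WT libraries 1 and 3. For WT library 3 they were 0.747 to 0.815 with that group, and 0.864 and 0.795 with WT libraries 1 and 2. Il10 RNA went against a loss of transcript: its FPKM was 0.757, 0.173 and 0.177 in WT libraries 1 to 3, against 13.8, 10.6 and 14.5 for those labelled Il10 knockout. Its log2 fold change reached 3.36 (SE 0.25, adjusted p = 0.0092, limma with Benjamini-Hochberg adjustment), and the adjusted p in limma rose above 0.05 without WT library 3 (0.0618), library 2 (0.059) or library 3 (0.0671) labelled Il10 knockout. It was also above 0.05 in limma with no filter (0.0541), a pseudocount of 0.01 (0.0589), voom on the recovered reads (0.111) or smooth muscle as a covariate (0.209). Without WT library 3 and library 2 labelled Il10 knockout together it was above 0.05 for every gene, Il10 included. The file gives 1 value for the gene as a whole, and whether the reads come from a disrupted transcript was not tested. Every direction given here rests on the labels as they stand.

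Transcripts of all 7 GTPases were detected in every library, and all 7 had a higher mean in the libraries labelled Il10 knockout, from 1.07 times the WT mean for Irgm2 to 2.91 times for Iigp1, though the sign for Irgm2 changed with the libraries and the scaling used. None of the 7 passed the test across the table. Log2 fold changes here are WT values subtracted from Il10 knockout values, each as log2(FPKM + 1), where changes of genes with low levels are understated, and a gene was called at an adjusted p under 0.05 in limma with Benjamini-Hochberg adjustment over the 12668 genes whose FPKM averaged 1 or more. Of all these genes 0.182% were called higher, against 0 of the 7 members. At an unadjusted p under 0.05 in limma 3 members were higher (Iigp1, Igtp and Tgtp2), where 6.14% of all genes were. The groups did not overlap for 2 members, Iigp1 and Ifi47, where 8.84% of all genes lay wholly higher in the libraries labelled Il10 knockout. A positive log2 fold change was found for 7 of 7 members and for 54.1% of all genes, and the median was 1.25 for the members and 0.04 for all genes. The RNA came from whole colon, in which fewer cells of a type and less RNA per cell cannot be told apart.

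The count at an unadjusted p under 0.05 depended on single libraries. In limma it was 0 without WT library 3, without library 1 labelled Il10 knockout or without library 2 labelled Il10 knockout, and 0 without WT library 3 and that library 2 together. Leaving out WT library 1 gave 4, leaving out WT library 2 gave 1 and leaving out library 3 labelled Il10 knockout gave 2. The members' median log2 fold change was 1.76 without WT library 1 and 0.85 without WT library 3.

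**Figure D1:**
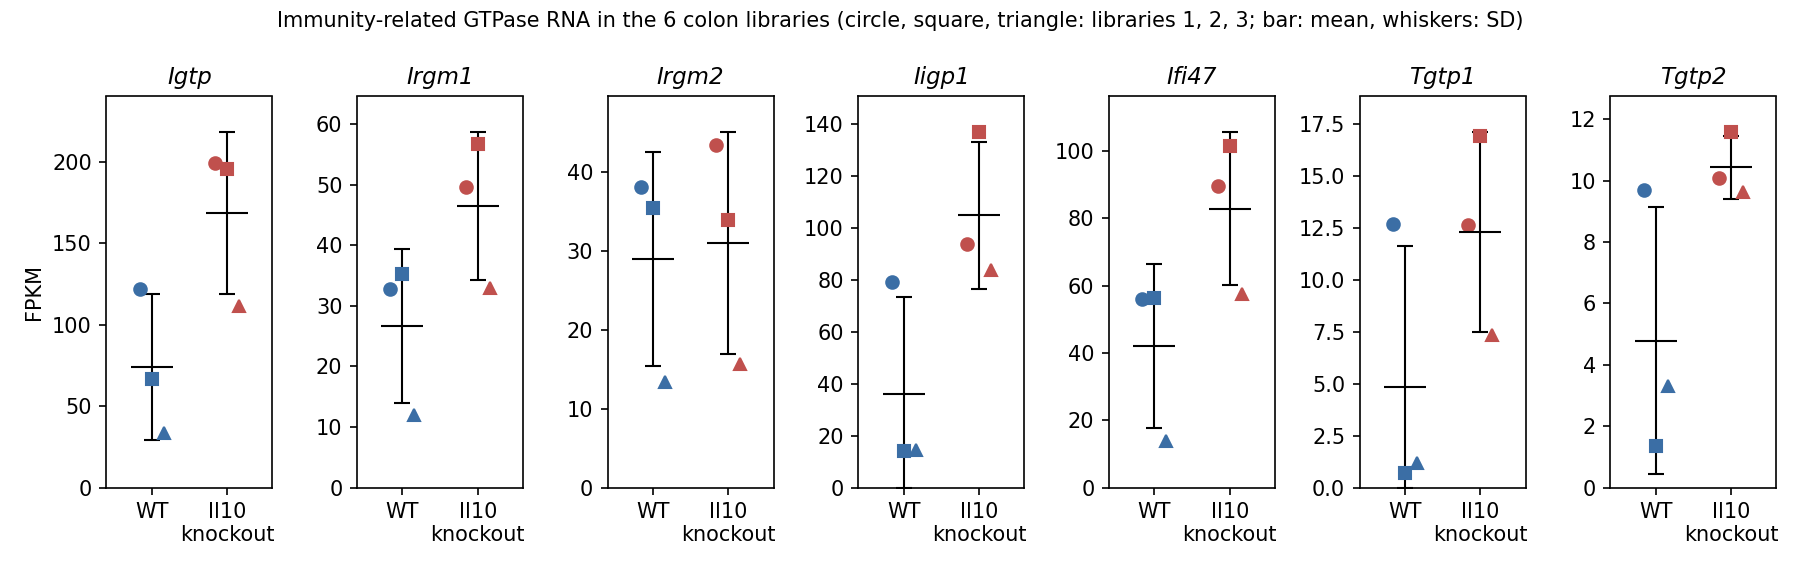
FPKM (vertical axes, each starting at 0 with its own scale) of the 7 GTPases in the 3 WT libraries (blue) and the 3 libraries labelled Il10 knockout (red); circles, squares and triangles mark libraries 1, 2 and 3, horizontal bars the mean and whiskers the SD, cut at 0 where the mean minus the SD is negative. Iigp1 and Ifi47 have no overlap between the groups, and for Iigp1, Tgtp1 and Tgtp2 WT library 1 lies far above WT libraries 2 and 3.

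Among the regulatory members, Igtp (ENSMUSG00000078853; GRCm38 chromosome 11, 58199556 to 58207591, plus strand, protein coding) had the highest level of the 7 in all 6 libraries. It measured 121.7, 66.6 and 33.5 FPKM in WT libraries 1 to 3 against 198.8, 195.5 and 111.4 FPKM in those labelled Il10 knockout. WT library 1 lay above the lowest of the libraries labelled Il10 knockout, so the groups overlapped. The means were 74.0 ± 44.6 and 169 ± 49.5 FPKM (SD, n = 3 each), from 6628 and 14961 reads per group. The log2 fold change was 1.31 (SE 0.53, unadjusted p = 0.0421, adjusted p = 0.475, limma). An exact two-sided permutation test gave p = 0.2, where 3 against 3 libraries cannot go below 0.1.

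Irgm1 (ENSMUSG00000046879; chromosome 11, 48861968 to 48871683, minus strand, protein coding) measured 32.8, 35.3 and 12.1 FPKM in the WT libraries against 49.6, 56.8 and 32.9 FPKM in those labelled Il10 knockout. Only WT library 3 was low, with WT libraries 1 and 2 close together. The groups overlapped through WT library 2. The means were 26.7 ± 12.8 and 46.5 ± 12.3 FPKM (SD, n = 3), and the log2 fold change was 0.88 (SE 0.47, adjusted p = 0.574, limma; exact permutation p = 0.2). Without WT library 3 it was 0.40.

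Irgm2 (ENSMUSG00000069874; chromosome 11, 58199618 to 58222782, plus strand, protein coding) differed from the other 6 in having nearly the same mean in both groups. It measured 38.1, 35.4 and 13.4 FPKM in the WT libraries against 43.4, 33.9 and 15.6 FPKM in those labelled Il10 knockout. In each group library 3 was the lowest, and the groups overlapped almost wholly. The means were 29.0 ± 13.6 and 31.0 ± 14.1 FPKM (SD, n = 3), and the log2 fold change was 0.11 (SE 0.53, adjusted p = 0.965, limma; exact permutation p = 0.7). Its sign was not stable: it was -0.35 without WT library 3, -0.18 without library 1 and -0.01 without library 2 labelled Il10 knockout, and -0.20 with a weight per library. No direction is given for Irgm2.

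Among the effectors, Iigp1 (ENSMUSG00000054072; chromosome 18, 60376029 to 60392627, plus strand, protein coding) had the largest log2 fold change of the 7 on the log2(FPKM + 1) scale. It measured 79.1, 14.1 and 14.6 FPKM in WT libraries 1 to 3 against 93.7, 136.7 and 83.7 FPKM in those labelled Il10 knockout. The groups did not overlap, although WT library 1 came close to the lowest library labelled Il10 knockout, and WT libraries 2 and 3 were far below both. The means were 35.9 ± 37.4 and 105 ± 28.2 FPKM (SD, n = 3), from 5156 and 14660 reads. The log2 fold change was 1.96 (SE 0.68, unadjusted p = 0.0237, adjusted p = 0.435, limma; exact permutation p = 0.1, the smallest the design allows). It was 2.75 without WT library 1 (adjusted p = 0.0763, limma), 1.55 without WT library 2 and 1.57 without WT library 3, and 0.93 with a weight per library (adjusted p = 0.289, limma). The file gives the gene a length of 3121 bases, where the GENCODE M21 model has 5823 exon bases, so its level per length rests on the file's model.

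Ifi47 (ENSMUSG00000078920; chromosome 11, 49076587 to 49096974, plus strand, protein coding) measured 55.9, 56.4 and 14.0 FPKM in the WT libraries against 89.5, 101.6 and 57.6 FPKM in those labelled Il10 knockout. The groups did not overlap, but WT library 2 came close to library 3 labelled Il10 knockout. The means were 42.1 ± 24.3 and 82.9 ± 22.7 FPKM (SD, n = 3), and the log2 fold change was 1.16 (SE 0.58, adjusted p = 0.556, limma; exact permutation p = 0.1). Without WT library 3 it was 0.51. Exons of Ifi47 share 111 bases with Olfr56 on the same strand and 106 bases with Gm12188 on the opposite strand, and no strand setting is given for the counting.

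Tgtp1 and Tgtp2, a pair of nearby genes of closely similar sequence, were the lowest of the 7 by mean. Tgtp1 (ENSMUSG00000078922; chromosome 11, 48985327 to 48994172, minus strand, protein coding) measured 12.7, 0.685 and 1.21 FPKM in the WT libraries against 12.7, 16.9 and 7.33 FPKM in those labelled Il10 knockout. Tgtp2 (ENSMUSG00000078921; chromosome 11, 49057194 to 49064206, minus strand, protein coding) measured 9.68, 1.37 and 3.32 FPKM in the WT libraries against 10.1, 11.6 and 9.62 FPKM in those labelled Il10 knockout. For both genes WT library 1 reached the level of the libraries labelled Il10 knockout, so the groups overlapped, while WT libraries 2 and 3 lay below all of them.

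The log2 fold changes were 1.77 for Tgtp1 (SE 0.79, adjusted p = 0.507, limma) and 1.25 for Tgtp2 (SE 0.52, unadjusted p = 0.0473, adjusted p = 0.489, limma). Exact permutation tests gave p = 0.3 and p = 0.2. Without WT library 1 the log2 fold changes were 2.72 for Tgtp1 and 1.83 for Tgtp2, and without WT library 2 they were 1.21 and 0.75. With a weight per library they were 0.52 and 0.43. The weights were 2.76, 0.198 and 0.465 for WT libraries 1 to 3, so within WT that fit rests mostly on WT library 1. The WT values of the pair rest mostly on WT library 1, which held 656 of the 735 WT reads of Tgtp1 and 459 of the 638 of Tgtp2. Of the 36-base words in Tgtp1 transcripts, 82.1% also occurred in Tgtp2, and 88.3% of those in Tgtp2 occurred in Tgtp1, so how reads were divided between the pair is uncertain. Counted as a single feature the pair measured 22.5, 2.02 and 4.43 FPKM in the WT libraries against 22.9, 28.7 and 16.9 FPKM in those labelled Il10 knockout. Its log2 fold change was 1.68 (SE 0.72, adjusted p = 0.502, limma). The sum kept the pattern of each gene, with WT library 1 inside the range of the libraries labelled Il10 knockout.

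**Figure D2:**
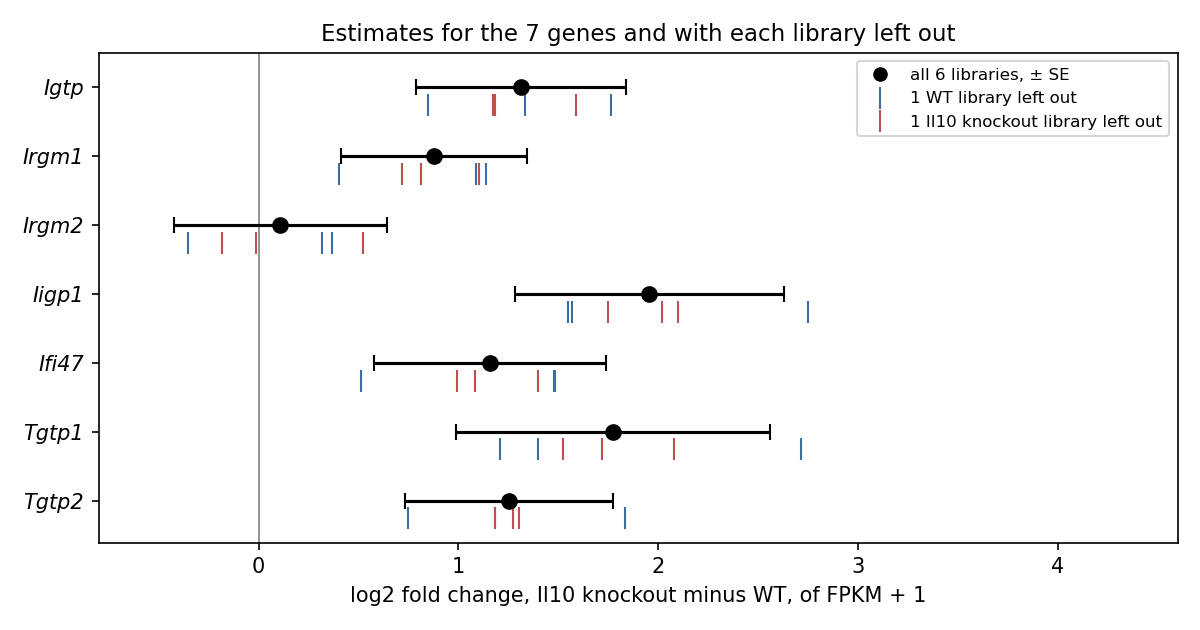
Log2 fold changes of FPKM + 1 (horizontal axis, Il10 knockout minus WT) of the 7 GTPases: black points with whiskers are the estimate from all 6 libraries ± SE, and ticks below them are the estimates with 1 WT library (blue) or 1 library labelled Il10 knockout (red) left out. All ticks of 6 genes lie above 0, while those of Irgm2 run from -0.35 to 0.52.

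The WT libraries did not vary by a common factor across the family. Taking the mean of the libraries labelled Il10 knockout as the reference for each gene, WT library 3 was low for all 7, from 9.81% for Tgtp1 to 43.3% for Irgm2. WT library 2 divided the genes. In it Iigp1, Tgtp1 and Tgtp2 stood at 13.5%, 5.57% and 13.1% of that mean, Igtp at 39.5%, and Irgm1, Ifi47 and Irgm2 at 75.9%, 68.0% and 114%. In WT library 1 all 7 stood at 67.4% or more, with Irgm2 at 123% and Tgtp1 at 103%. Compared directly, WT library 2 held 17.9% of the Iigp1 level, 5.40% of the Tgtp1 level and 14.1% of the Tgtp2 level of WT library 1. For Irgm1, Ifi47 and Irgm2 the same comparison gave 108%, 101% and 93.0%. The split does not follow the classes, since the effector Ifi47 went with Irgm1 and Irgm2. It was seen in 1 library, with no replicate of that library. The contrast between members does not depend on how a library was scaled, but the percentages do. The library size implied by the FPKM was 1.23 times the recovered reads in WT library 1 and 0.836 times in WT library 2. For Irgm1, WT library 1 held 3077 of 13107941 recovered reads and WT library 2 held 2706 of 15797928. Ifi47 had 2232 and 1841 reads there, and Irgm2 2269 and 1727.

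Summed over the 7 genes the family measured 350.1, 210.0 and 92.0 FPKM in WT libraries 1 to 3 against 498, 553 and 318 FPKM in those labelled Il10 knockout. The 3 regulatory members made up 55.0%, 65.4% and 64.1% of this sum in WT and 58.6%, 51.7% and 50.3% in the libraries labelled Il10 knockout, so their share overlapped between the groups. By mean level the WT order was Igtp, Ifi47, Iigp1, Irgm2, Irgm1, Tgtp1, Tgtp2, and every pair of neighbours had overlapping ranges. The order in the libraries labelled Il10 knockout was Igtp, Iigp1, Ifi47, Irgm1, Irgm2, Tgtp1, Tgtp2. There the only neighbours whose ranges did not overlap were Ifi47 (57.6 to 101.6 FPKM) and Irgm1 (32.9 to 56.8 FPKM).

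Ratios of 2 members within a library do not depend on how that library was scaled. All 21 pairs were computed, after the values had been seen, and 5 had no overlap between the groups. Of the 6 pairs with Irgm2, 4 had none, and of the 15 other pairs 1 had none. Among all 12667 other tested genes, the ratio to Irgm2 lay wholly higher in the libraries labelled Il10 knockout for 3.43%.

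Igtp over Irgm2 was 3.20, 1.88 and 2.50 in WT and 4.58, 5.76 and 7.12 in the libraries labelled Il10 knockout. Iigp1 over Irgm2 was 2.08, 0.399 and 1.09 in WT and 2.16, 4.03 and 5.35 in the libraries labelled Il10 knockout. Ifi47 over Irgm2 was 1.47, 1.59 and 1.04 in WT against 2.06, 3.0 and 3.69. In all 3 ratios every library labelled Il10 knockout lay above every WT library, by the narrowest margin for Iigp1. Irgm1, the fourth, was at 0.861, 0.995 and 0.899 times Irgm2 in WT and at 1.14, 1.67 and 2.11 times Irgm2 in the libraries labelled Il10 knockout. Exact two-sided permutation tests of the log2 ratios gave p = 0.1 for each, the smallest possible, and 0.42 after Benjamini-Hochberg adjustment over the 21 pairs. Irgm2 and Igtp share 162 exon bases on the same strand, which is 8.01% of the exon bases of Igtp, and the handling of such reads is not given in the sources used here. The ratio of the effector Iigp1 to the regulatory member Irgm1 overlapped between the groups: it was 2.41, 0.401 and 1.21 in WT and 1.89, 2.41 and 2.54 in the libraries labelled Il10 knockout.

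**Figure D3:**
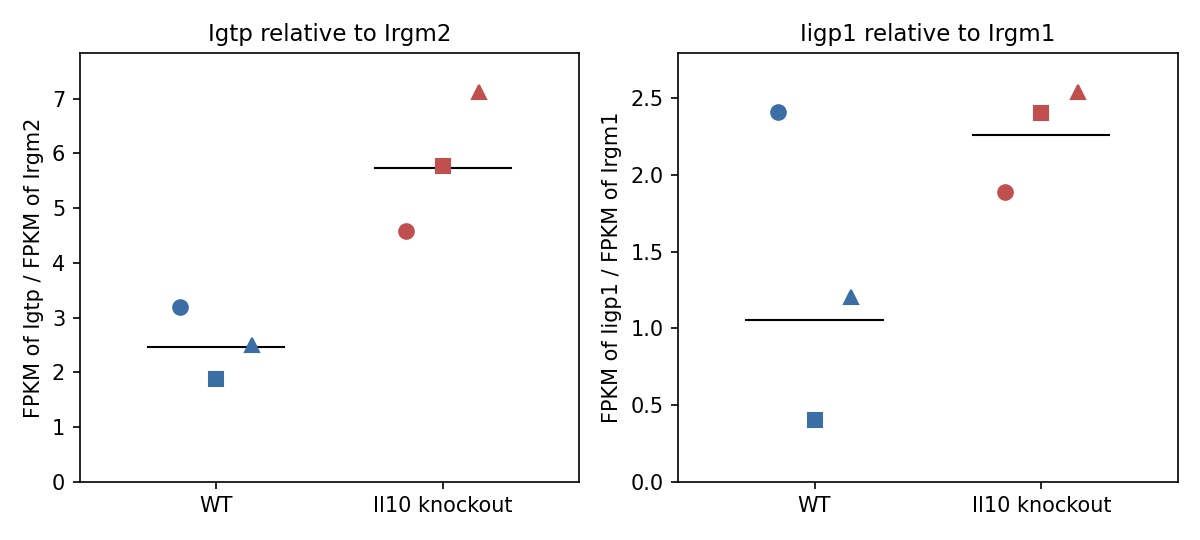
Within-library FPKM ratios (vertical axes from 0) of Igtp to Irgm2 and of Iigp1 to Irgm1; circles, squares and triangles are libraries 1, 2 and 3 of WT (blue) and of the group labelled Il10 knockout (red), and bars are geometric means. Igtp over Irgm2 runs from 1.88 to 3.20 in WT and from 4.58 to 7.12 in the libraries labelled Il10 knockout, while Iigp1 over Irgm1 overlaps through WT library 1 at 2.41.

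Promoter windows of several members held the letter patterns of the elements on which interferon signalling acts. RefSeq windows of 300 bases, from 250 before to 50 after each start site (GRCm38.p6), were matched by symbol for 6 of the 7 members. They were searched on both strands for the core of the interferon-stimulated response element (ISRE, GAAANNGAAA), bound by IRF factors, and for the gamma-activated site (GAS, TTCNNNGAA), an element of interferon gamma signalling. The ISRE core occurred in 5 of the 6 windows and in 3.44% of all 32851 windows of that length. The GAS pattern occurred in 4 of the 6 and in 8.30% of all windows. Neither pattern occurred in the Ifi47 window.

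The stretches that hold the matches are shown for Igtp and Irgm2, whose RNA differed in pattern, for Tgtp1 and Tgtp2, and for Irgm1. Tgtp1 and Tgtp2 had the largest ratios of the highest to the lowest WT library among the 7, at 18.5 and 7.08. Capitals mark the GAS match and then the ISRE core match in the first 4 sequences, and 2 overlapping ISRE core matches in the last. Positions are chr11:58199481-58199551 (plus strand) for Igtp, chr11:58214872-58214942 (plus strand) for Irgm2, chr11:48992294-48992364 (minus strand) for Tgtp1, chr11:49064253-49064323 (minus strand) for Tgtp2 and chr11:48871421-48871480 (minus strand) for Irgm1, each read in the direction of transcription from RefSeq.
Igtp: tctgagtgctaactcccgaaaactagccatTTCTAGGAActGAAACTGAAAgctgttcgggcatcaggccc
Irgm2: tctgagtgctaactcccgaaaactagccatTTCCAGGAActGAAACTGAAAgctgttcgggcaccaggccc
Tgtp1: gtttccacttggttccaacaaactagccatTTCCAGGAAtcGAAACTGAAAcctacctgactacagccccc
Tgtp2: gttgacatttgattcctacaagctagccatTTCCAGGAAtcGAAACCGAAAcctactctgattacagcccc
Irgm1: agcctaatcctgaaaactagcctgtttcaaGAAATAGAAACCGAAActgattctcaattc

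In Igtp, Irgm2, Tgtp1 and Tgtp2 the GAS match was followed after 2 bases by the ISRE core match, a spacing read from these sequences themselves. The only other window with it was that of Gm12185, a relative that shares exon bases with Tgtp1. The ISRE core began 34 bases before the start site in Igtp, 64 in Irgm2, 77 in Tgtp1 and 70 in Tgtp2, and 30 and 24 bases before it in Irgm1. Over the whole window Igtp and Irgm2 were 72.8% identical and Tgtp1 and Tgtp2 66.8%, against 39.3% to 50.3% for the other 13 pairs. Igtp and Irgm2 held both patterns at the same spacing, with an RNA level of Igtp 1.88 to 3.20 times that of Irgm2 in WT and 4.58 to 7.12 times in the libraries labelled Il10 knockout. The start site RefSeq gives for Irgm2 lies 15359 bases inside the gene as the file bounds it, and that for Tgtp1 1926 bases inside. In the file Irgm2 begins at 58199618, close to the start of Igtp at 58199556 on the same strand. Its FPKM may therefore also count transcripts that begin there, and need not be the output of the printed window alone. The ISRE core was also held by 5 of 5 windows found for the 11 listed guanylate-binding proteins, by 1 of 10 found for the 18 listed interferon gamma targets and by 10 of 17 found for the 26 listed type I interferon targets. These matches are letters in a window and no measure of binding.

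**Figure D4:**
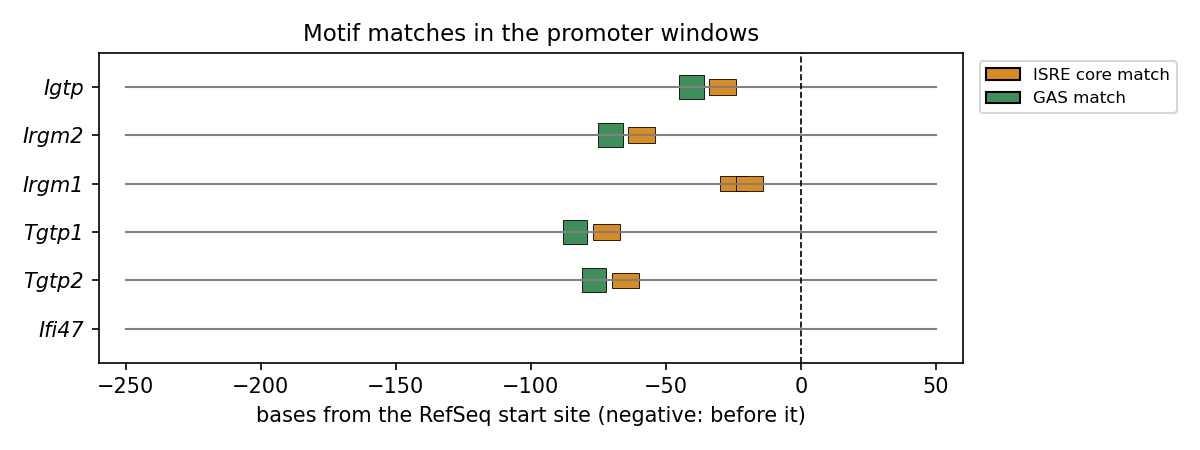
Matches to the ISRE core (orange) and the GAS pattern (green) in the promoter windows of 6 members, drawn to scale in bases from the RefSeq start site (horizontal axis, dashed line at the start). In Igtp, Irgm2, Tgtp1 and Tgtp2 the GAS match lies just before the ISRE core match, Irgm1 has 2 overlapping ISRE core matches, and Ifi47 has none.

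Relatives in the wider GTPase family were mixed. Of 14 listed relatives 13 were in the table and 8 passed the filter on mean FPKM. Of these 8, 7 had a positive and 1 a negative log2 fold change, 0 were called, and the median was 0.46, where 54.1% of all genes had a positive value. Of the 7, Gm5431 and Gvin1 had lower mean FPKM in the libraries labelled Il10 knockout (9.15 against 11.2 and 4.02 against 4.61), and Irgq had a log2 fold change of 0.08. Gm12250, the gene of the effector Irgb10, annotated in the file as a processed pseudogene, measured 16.4, 25.9 and 4.92 FPKM in the WT libraries against 28.0, 32.4 and 18.6 FPKM in those labelled Il10 knockout (log2 fold change 0.93, SE 0.57, adjusted p = 0.633, limma, and -0.15 with the smooth muscle covariate described with the cell type markers). WT library 3 was the lowest of the 6, and WT library 1 also lay below every library labelled Il10 knockout. Gm4841, a relative of Iigp1, measured 11.6, 0.427 and 1.12 FPKM in the WT libraries against 10.6, 11.5 and 7.69 FPKM in those labelled Il10 knockout (log2 fold change 1.69, adjusted p = 0.517, limma). Its WT libraries 2 and 3 were both low, as for Iigp1 and the Tgtp pair. Gm4951 was the only relative with an unadjusted p under 0.05 (log2 fold change 1.09, adjusted p = 0.456, limma), and Gm5431 was highest in WT library 2, at 23.1 FPKM, with a log2 fold change of 0.02. The negative value was that of Gm8979, annotated as an unprocessed pseudogene (log2 fold change -0.15), which was highest in WT library 1 at 49.4 FPKM.

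The guanylate-binding proteins, a second family of interferon-inducible GTPases that work with the immunity-related GTPases on vacuoles, were divided. Of 11 listed, 9 were tested, 7 had a positive and 2 a negative log2 fold change, 0 were called and the median was 0.40. A positive value was found for 54.1% of all genes. At an unadjusted p under 0.05 in limma 4 were higher, where 6.14% of all genes were. Gbp2 measured 74.7, 19.4 and 14.1 FPKM in the WT libraries against 132, 233 and 131 FPKM in those labelled Il10 knockout, without overlap (log2 fold change 2.48, SE 0.64, adjusted p = 0.30, limma). Gbp4 also had no overlap (log2 fold change 1.97, adjusted p = 0.342, limma), where 8.84% of all genes lay wholly higher in the libraries labelled Il10 knockout. Gbp5 and Gbp8 had log2 fold changes of 1.46 and 1.61, with overlap. Gbp3 had one of 0.00 and Gbp6 one of 0.08.

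Upstream, Ifng, the gene of interferon gamma itself, had few reads in WT. It measured 1.34, 0.234 and 0.179 FPKM in the WT libraries against 1.41, 6.73 and 3.32 FPKM in those labelled Il10 knockout, from 35 and 230 reads per group. WT library 1 nearly met library 1 labelled Il10 knockout, though the groups did not overlap, and the log2 fold change was 1.52 (SE 0.49, adjusted p = 0.396, limma). Among the WT libraries Ifng was highest in WT library 1, as were Igtp, Irgm2, Iigp1 and the Tgtp pair.

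The receptor genes Ifngr1 and Ifngr2 had log2 fold changes of 0.96 and 0.43, with overlapping groups. Of the 10 signalling genes listed 8 had a positive and 2 a negative log2 fold change (54.1% of all genes had a positive one) and 0 were called. The largest was that of Socs3, an inhibitor of signalling by interleukin 6 and related cytokines, at 2.99 (SE 0.43, adjusted p = 0.069, limma). Socs3 measured 10.5, 3.20 and 4.36 FPKM in the WT libraries against 66.6, 45.0 and 40.7 FPKM in those labelled Il10 knockout, without overlap. Irf1, a factor that binds ISRE sequences, measured 56.5, 68.7 and 21.1 FPKM in the WT libraries against 115, 123 and 63.4 FPKM in those labelled Il10 knockout (log2 fold change 1.13, adjusted p = 0.518, limma). Its WT libraries 1 and 2 were close and WT library 3 low, as for Irgm1 and Ifi47. Irf8, a partner of Irf1, had a log2 fold change of 1.07 and Socs1, a feedback inhibitor of interferon gamma signalling, one of 2.07, both without overlap (adjusted p = 0.360 and 0.205, limma). Stat2 and Irf9, which carry type I interferon signals to the nucleus, were lower without overlap, with log2 fold changes of -0.73 and -0.71 (adjusted p = 0.459 and 0.444, limma).

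**Figure D5:**
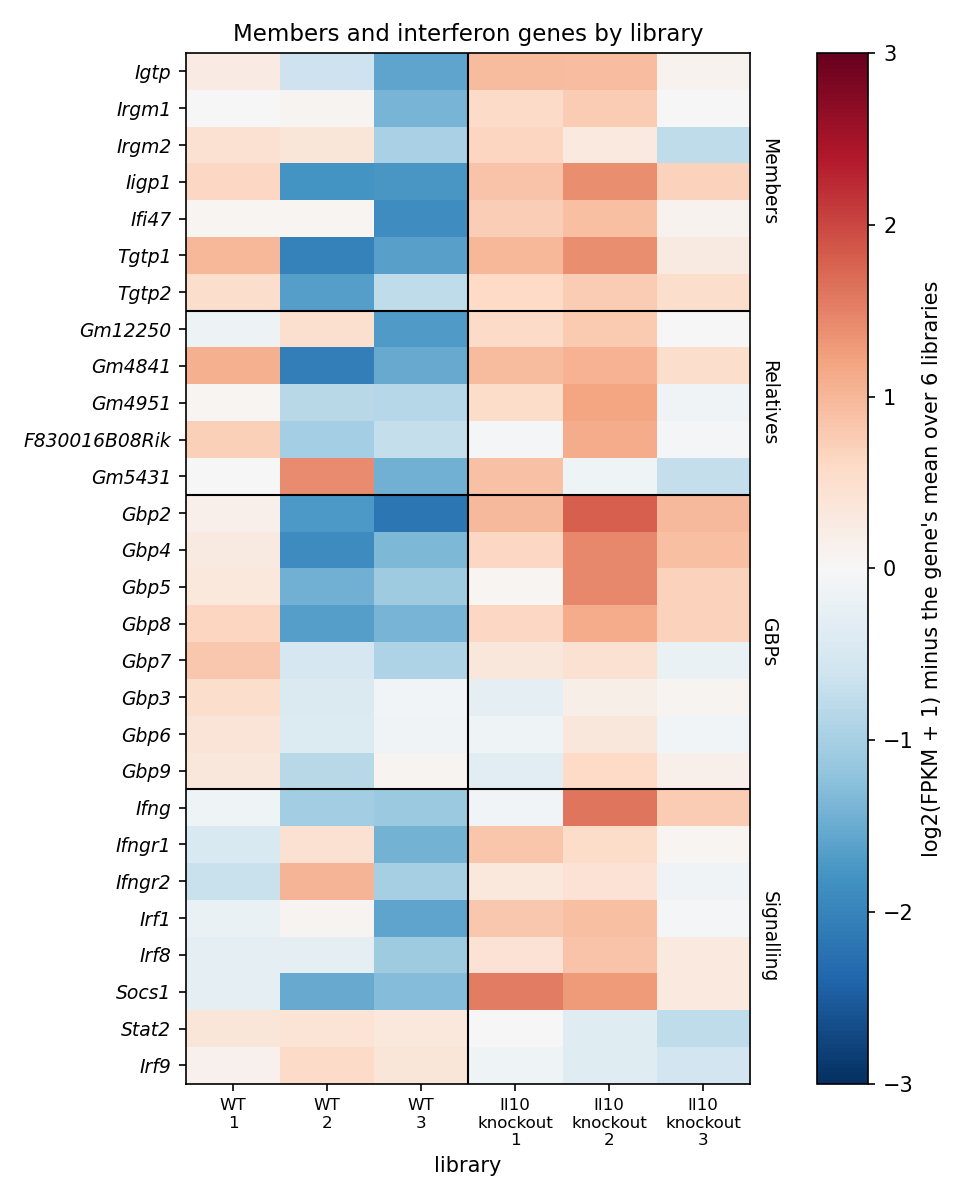
Log2(FPKM + 1) minus the gene's mean over the 6 libraries (colour, blue below and red above the mean) for the 7 GTPases, 5 of their relatives, 8 guanylate-binding proteins and 8 genes of interferon signalling (rows) in the 3 WT libraries and the 3 labelled Il10 knockout (columns). WT library 2 is pale for Irgm1, Irgm2 and Ifi47 and deep blue for Iigp1, Tgtp1 and Tgtp2, and Stat2 and Irf9 run the other way between the groups.

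The lists of targets of the 2 kinds of interferon had medians on opposite sides of 0. Of 18 listed interferon gamma targets 17 were tested, 17 had a positive log2 fold change (54.1% of all genes did), 0 were called, 11 were higher at an unadjusted p under 0.05 in limma (6.14% of all genes were) and the median was 1.28. Ido1, which breaks down tryptophan, had a log2 fold change of 5.07 and Ubd, a ubiquitin-like modifier, one of 4.25 (adjusted p = 0.138 and 0.354, limma). Without WT library 1 Ido1 was called, with a log2 fold change of 6.23 and an adjusted p of 0.0226 in limma. It was not called without WT library 2 (4.47, adjusted p = 0.124, limma) or WT library 3 (4.51, adjusted p = 0.330, limma), and was 3.55 with a weight per library. Ubd was 2.91 without WT library 3, 2.62 with a weight per library and 2.02 with the smooth muscle covariate. Of 26 type I interferon targets 24 had a negative and 2 a positive log2 fold change, 0 were called and the median was -1.20. The positive ones, named after their values were seen, were Zbp1 at 1.12 and Ifit2 at 1.06, both with overlap. Of these 26, 13 were lower at an unadjusted p under 0.05, where 4.03% of all genes were. For 15 of the 26 the libraries labelled Il10 knockout lay wholly lower, where 7.89% of all genes did. Both lists were chosen with earlier results of these data known, so their directions are not independent evidence. The GTPase genes respond to both kinds of interferon in cultured cells, and which of them bears on the members' values was not tested.

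Genes of the machinery around the GTPases showed no common shift. Of 11 genes of the ubiquitin-like conjugation system of autophagy, which the GTPases need for correct loading, 6 had a positive and 5 a negative log2 fold change, 0 had an unadjusted p under 0.05 in limma and the median was 0.01. Single genes ran from -1.04 to 0.43, with Atg5 at 0.23 and Atg7 at 0.07. Of 8 listed vacuole and lipid droplet partners 5 had a positive and 3 a negative log2 fold change, with a median of 0.02. Single genes ran from -0.43 to 0.45. For 1 of the 8 the libraries labelled Il10 knockout lay wholly lower, where 7.89% of all genes did. Among the 8 were the adaptor gene Sqstm1 at 0.15 and the lipid droplet gene Plin2 at 0.07.

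The genes whose pattern over the 6 libraries was most like the mean of the standardised members were Adgra3 (Pearson's r = 0.994), Il18bp (0.990), Gm14508 (0.990), Cpd (0.981) and Zdhhc13 (0.971), followed by Gm15947, Slc5a1, Ighv6-6, Gm13160 and Tmem167 at 0.967 to 0.969. Likeness is a description over 6 libraries that share scaling and tissue make-up. Il18bp, which encodes the secreted inhibitor of interleukin 18, measured 16.8, 7.71 and 2.51 FPKM in the WT libraries against 20.5, 22.4 and 13.2 FPKM in those labelled Il10 knockout (log2 fold change 1.24, adjusted p = 0.524, limma). Within the family the r with that mean, to which each gene contributes, was 0.995 for Igtp, 0.926 for Iigp1, 0.918 for Ifi47, 0.916 for Tgtp1, 0.908 for Irgm1, 0.799 for Tgtp2 and 0.676 for Irgm2. Among the 9 guanylate-binding proteins tested it ran from 0.157 for Gbp2b to 0.928 for Gbp2. It was 0.767 for Ifng, 0.738 for Ifngr1 and 0.353 for Ifngr2, and it was 0.894 for Irf1, 0.818 for Socs3, 0.290 for Irf2 and -0.648 for Irf9. Among the type I interferon targets it ran from -0.810 for Mx2 to 0.717 for Ifit2 and 0.883 for Zbp1.

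Markers of the cell types in colon also differed between libraries, not all with the pattern of the members. Their part in the result was not tested. The 10 tested T and NK cell markers of 14 listed all had positive log2 fold changes. Their summed level was 15.8 to 106 FPKM in WT and 68.9 to 93.7 FPKM in the libraries labelled Il10 knockout, with Gzma at 0 in WT library 3. Their mean log2 level was 3.04, 2.06 and 1.20 in WT libraries 1 to 3, the same order as for Igtp. It was 2.60 to 2.77 in the libraries labelled Il10 knockout, so WT library 1 was the highest of all libraries. Of the 11 macrophage markers 8 had positive and 3 negative log2 fold changes. They summed to 181 to 516 FPKM in WT against 352 to 712 FPKM, with none at 0. The 8 tested neutrophil markers of 10 listed summed to 1.02 to 170 FPKM against 1070 to 1955 FPKM, with S100a9, Cxcr2, Retnlg and Mmp8 at 0 in all 3 WT libraries. The 7 B and plasma cell markers, of which 5 had positive log2 fold changes, summed to 51.2 to 515 FPKM against 174 to 449.7 FPKM, with none at 0. On the log2 scale these markers averaged 4.64 for WT library 1 but 2.18 for WT library 2 and 2.23 for WT library 3, so WT library 1 stood above the other two as it did for Iigp1 and the Tgtp pair. The libraries labelled Il10 knockout averaged 4.63, 2.82 and 2.83.

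The 13 colon epithelium markers, all detected in every library, summed to 3318 to 45507 FPKM in WT and 10620 to 20080 FPKM in the libraries labelled Il10 knockout. WT library 2 had the highest sum, of which 1 marker gave 31511 FPKM. Of the 13 markers 11 had positive and 2 negative log2 fold changes, with a median of 0.81. The 10 smooth muscle markers all had negative log2 fold changes and summed to 1623 to 10877 FPKM in WT and 210.5 to 1274 FPKM in the libraries labelled Il10 knockout. Of the 10 enteric neuron and glia markers 9 had negative log2 fold changes, with a median of -1.57 and a summed level of 256.7 FPKM in WT library 3, 51.3 FPKM or less in the other WT libraries and 12.5 to 40.8 FPKM in those labelled Il10 knockout. The 4 tested endothelial markers of 6 listed all had negative log2 fold changes, and summed to 21.3 FPKM in WT library 3 and to 6.90 to 12.1 FPKM in the libraries labelled Il10 knockout. None of the smooth muscle, neuron and glia or endothelial markers tested was at 0. WT library 3, where Igtp, Irgm1, Irgm2 and Ifi47 were the lowest of the 6 libraries, had the highest smooth muscle, neuron and glia and endothelial levels and the highest mitochondrial share. Without WT library 3 the log2 fold changes were 0.85 for Igtp, 0.40 for Irgm1, 0.51 for Ifi47, 1.57 for Iigp1, 1.40 for Tgtp1 and 1.18 for Tgtp2. With the mean of the smooth muscle markers as a covariate they were 0.52 for Igtp, 0.02 for Irgm1, 0.06 for Ifi47, -0.67 for Irgm2, 1.18 for Iigp1, 0.98 for Tgtp1 and 1.09 for Tgtp2. That covariate, on the log2 scale, was 6.05 to 8.53 in WT and 3.46 to 5.63 in the libraries labelled Il10 knockout. It separated the groups without overlap, so the fit sets smooth muscle content apart from the label only by differences within each group. Those differences rest mostly on WT library 3 (8.53) and library 2 labelled Il10 knockout (3.46). With 3 libraries per group, smooth muscle content and the label are not reliably told apart in this fit.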

How the data were processed

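Per the labels, RNA was extracted from frozen colon with Trizol, and total RNA went into an NEBNext Ultra kit. Bowtie 0.12.2 is named in the submitters' processing notes, as are the builds hg38 and mm8, with no role. The authors deposited 1 table of FPKM values with gene coordinates and lengths, per the file headers. How reads were counted, with which strand setting and what rule for several matches, is not given in the sources used here. Among 54495 identifiers found in GENCODE M21 (GRCm38), 98.3% had identical coordinates, so positions are given as GRCm38. FPKM times length gave whole multiples of 1 step per library for 100% of values above 0 (tolerance 0.01), from which reads were recovered.

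The 7 genes, the gene lists and the tests were chosen with earlier results of these data known. Values were taken as log2(FPKM + 1), a pseudocount of 1, for the 12668 genes whose mean FPKM was 1 or more, and fitted with limma 3.58.1 (eBayes with the mean trend, R 4.3.3) and Benjamini-Hochberg adjustment at 0.05, with 3 libraries per group and no replicate block. The procedure was run on data simulated with independent genes and the same spread of a gene in both groups. The real WT libraries stood further apart than those labelled Il10 knockout, so that run does not cover such data. Library pairs differed by a chi-square of 60.7 or more per gene, so none was counted as a repeat. Named genes were the 7 members, Il10, measured genes of the relatives, guanylate-binding protein, interferon gamma and signalling lists, at most 4 per other list by smallest p, and the 10 genes with the highest Pearson's r with the members' mean; markers at 0, Gm12185, the exon partners of Ifi47, Atg5, Atg7, Sqstm1, Plin2, Zbp1 and Ifit2 were named after their values were seen. Alternatives were other pseudocounts, filters, scalings, eBayes settings, weights per library, a replicate block, voom on the recovered reads, a smooth muscle covariate, the Tgtp pair as 1 feature and leaving out each library. The fit without WT library 3 and library 2 labelled Il10 knockout, the highest and lowest in smooth muscle markers, was chosen after seeing the data, as were the ratios of members. No list was given a set test. A gene of the signalling list is not reported here.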

Additional observations from a re-analysis of the deposited data

How the results depend on the processing

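None of the 7 GTPases was called under any of the alternatives run, 22 for Tgtp1 and Tgtp2, which one alternative merges, and 23 for the others, with 0 to 6 of them at an unadjusted p under 0.05 in limma. The log2 fold changes of the 6 members other than Irgm2 were above 0 in every alternative run. Irgm2 changed sign in 8 alternatives: -0.033 with quantile normalization and -0.027 after rescaling without mitochondrial genes, -0.20 with weights per library, -0.35 without WT library 3, -0.18 without library 1 and -0.01 without library 2 labelled Il10 knockout, -0.67 with the smooth muscle covariate and -0.47 without WT library 3 and library 2 labelled Il10 knockout together. Gm12250 changed sign in 1, at -0.15 with that covariate. Over single left-out libraries Irgm2 ran from -0.35 to 0.52. The cause was not tested. Il10 had an adjusted p of 0.00243 to 0.291 in limma. Weights per library lowered Iigp1 to 0.93, Tgtp1 to 0.52 and Tgtp2 to 0.43. WT library 1, high for these genes, had a weight of 2.76, against 0.198 for WT library 2 and 0.465 for WT library 3.

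The count of genes called over the whole table, 23 in limma, was 9 with a pseudocount of 0.01, 4 with no filter, 46 on TPM, 331 with weights per library, 2 with voom on recovered reads, 1 with smooth muscle as a covariate, 0 without WT library 3 and library 2 labelled Il10 knockout (465 at an unadjusted p under 0.05), and 4 to 29 with single libraries left out. With no filter 27418 genes were tested, while a filter at a mean FPKM of 0.1 tested 19903 and called 19. Leaving out libraries left fewer of them. The cause of these differences was not tested. The median log2 fold change of all genes was 0.15 on TPM and -0.08 after rescaling without mitochondrial genes, against 0.04.

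The replicate numbers were not taken to pair the libraries. Deviations of same-numbered libraries from their group means correlated at -0.149, 0.180 and 0.396. WT library 1 correlated best with library 2 labelled Il10 knockout (0.096), while WT libraries 2 and 3 did so with the library of their own number. These values do not settle whether the libraries were paired. With a replicate block limma called 7 genes in place of 23, and 6 members had an unadjusted p under 0.05 with none called. Reads were fewest for Tgtp1 (29 and 50 in WT libraries 2 and 3) and Tgtp2 (53 in WT library 2), and the 35 Ifng reads in WT make its level there imprecise. Read numbers cover counting error only.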
